A study of Mus musculus with 3 samples.

Results

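Oncostatin M and its relatives of the interleukin-6 family were followed through 10 genes: the ligands Osm, Il6, Lif and Il11, the receptor chains Osmr, Lifr, Il6ra and Il11ra1, the shared signalling chain Il6st (gp130) and the feedback inhibitor Socs3. The genes were chosen by symbol from the 31053 genes of the count tables, with no measured value in the rule, and all 10 had UMIs (molecular tags, 1 per captured RNA molecule) in all 3 libraries. The cells came from ectopic masses that CD1 mice, an outbred strain, carried at day 5 after implantation. The Matrigel library came from implants of Matrigel alone, which is a basement membrane gel. In the IgG library Matrigel carried rhBMP2 (recombinant human bone morphogenetic protein 2), and the animals received pre-immune IgG as control. In the antibody library the same rhBMP2 implant was used, and the animals received nAct Ab, which neutralizes activin A. The sources used here do not give the number, age or sex of the mice behind each library. With 1 library per group, no difference between libraries has a replicate check, and none was tested.

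In this family each ligand assembles a receptor around Il6st. Oncostatin M uses Osmr with Il6st and leukemia inhibitory factor uses Lifr with Il6st, whereas interleukins 6 and 11 first bind Il6ra or Il11ra1, which carry no signal of their own and bring Il6st chains together. The receptors activate Janus kinases and STAT3, and Socs3, itself a STAT3 target, binds Il6st and dampens the signal. Macrophages and neutrophils are known sources of oncostatin M, and fibroblasts and cells of the bone lineage are known receivers.

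After filtering, 5674 to 8542 cells per library remained, with medians of 3360 to 4161 UMIs. Mesenchymal cells were those with at least 1% of UMIs from Col1a1, Col1a2 and Col3a1 together, and numbered 1982 in the Matrigel, 1478 in the IgG and 592 in the antibody library. Macrophages, under that share and with a UMI of Csf1r or Adgre1, numbered 5564, 3115 and 3040. Other immune cells, the remaining cells with a UMI of Ptprc, numbered 573, 688 and 1602, and 423, 393 and 448 cells stayed unclassified. The 8 macrophage markers that the rule did not use were in mesenchymal cells at a median of 0.940%, 0.710% and 0.624% of their macrophage level. The 8 mesenchymal markers were in macrophages at a median of 1.41%, 1.70% and 0.509% of their mesenchymal level, the highest of the 8 reaching 29.9%, 24.1% and 30.2%. Near the collagen threshold, 46, 68 and 21 cells had 0.5% to 1% and 26, 161 and 62 cells 1% to 2%. The marker shares in mesenchymal cells and macrophages serve below as the level that free RNA or mixed droplets can give. In other immune cells the 8 macrophage markers were at a median of 18.2%, 25.4% and 8.76% of their macrophage level. Of the other immune cells, 344, 256 and 236 had no lineage called. That class may thus hold macrophages without a UMI of Csf1r or Adgre1, which was not tested. Pairs of libraries shared 7 to 19 barcodes. Levels are given as CPM, the usual counts-per-million scale with all UMIs of a summed class as the total, and bracketed ranges are exact 95% intervals that cover counting error only. In a summed class, fewer expressing cells and less RNA per cell cannot be told apart unless shares of cells are given.

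Osm came from macrophages and a few other immune cells and was at the free-RNA level in mesenchymal cells. Macrophages held 20.3 CPM in the Matrigel, 45.3 in the IgG and 48.3 in the antibody library, and other immune cells 14.9, 96.3 and 41.6 CPM. Mesenchymal cells held 0.372, 0.483 and 0.471 CPM, from 7, 13 and 6 UMIs, which is 1.84%, 1.07% and 0.975% of the macrophage level. The immune classes were above mesenchymal cells in every library, with no overlap, though the share of all genes so separated was not counted. In edgeR's quasi-likelihood test on the 9 sums (3 classes in 3 libraries), Osm was lower in mesenchymal cells than in macrophages by a log2 fold change of -6.52 (SE 0.41, adjusted p = 1.1e-05).

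Osmr, the chain that gives oncostatin M its specificity, had the opposite distribution. Mesenchymal cells held 97.9, 80.5 and 83.7 CPM in the Matrigel, IgG and antibody libraries, and macrophages 1.14, 1.65 and 1.13 CPM. The macrophage level was 1.16%, 2.05% and 1.35% of the mesenchymal one, near that of the mesenchymal markers in macrophages. Other immune cells had 2, 3 and 6 UMIs of Osmr. Osmr was higher in mesenchymal cells than in macrophages by a log2 fold change of 5.99 (SE 0.21, adjusted p = 2.1e-06). So ligand and receptor were split between classes in each library, and the class holding the one had the other near the level of free RNA.

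**Figure D1:**
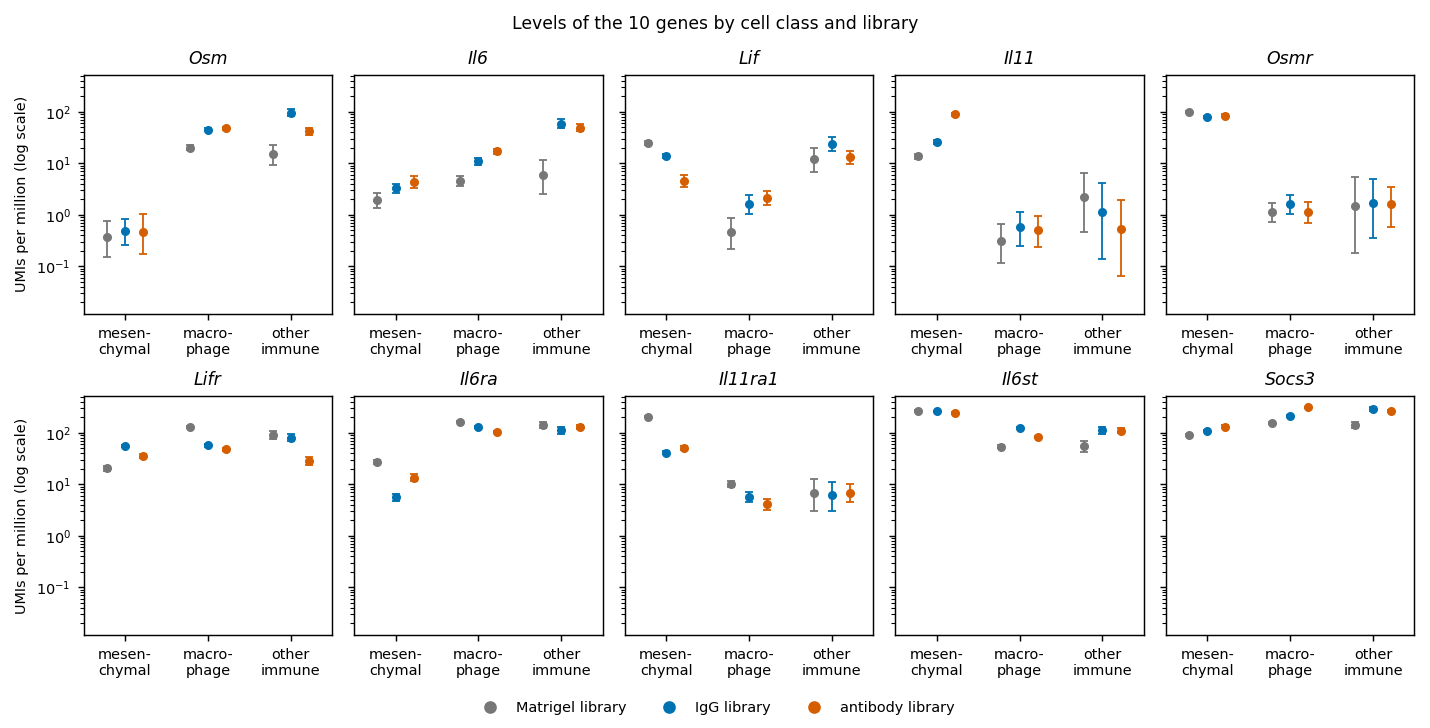
Levels of the 10 genes in CPM (log axis) by cell class, with 1 point per library and exact 95% Poisson intervals for counting error. Osm lies below 1 in mesenchymal cells and above 14 in both immune classes, while Osmr lies above 80 in mesenchymal cells and below 2 in both immune classes.

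Across the class comparison, 5 members were higher in mesenchymal cells than in macrophages and 4 were lower, at an adjusted p under 0.05. The background was high: 28.9% of the 13884 genes tested were higher and 29% lower, so the counts say mainly that the classes differ widely. The higher members were Osmr, Il11, Il11ra1, Lif and Il6st, and the lower ones Osm, Il6ra, Il6 and Socs3. Lifr had a log2 fold change of -1.03 (SE 0.49, adjusted p = 0.11). The median over the members was 0.27, against -0.02 over all genes. Against other immune cells, 4 members were higher in mesenchymal cells (background 28.8%) and 4 were lower (background 28%); Lif and Lifr did not pass, at adjusted p = 0.85 and 0.33. Between macrophages and other immune cells, 0 members were higher in macrophages (background 10.9%) and 2 lower (background 9.26%) by edgeR; the count of higher members was 0 also at an unadjusted p under 0.05 and by DESeq2. These were Il6, with a log2 fold change of -1.53 (adjusted p = 0.028), and Lif, with -3.31 (adjusted p = 0.025). Without the IgG library, and likewise without the antibody library, that count was 0, and Lif also lost its call between mesenchymal cells and macrophages without the IgG library (adjusted p = 0.080), as did Il6 without the antibody library (adjusted p = 0.11). With all cells that held at least 2 basophil or mast cell markers left out, an alternative added after seeing the data, Il6 no longer passed between mesenchymal and other immune cells (log2 fold change -0.03, adjusted p = 0.97). Its log2 fold change between macrophages and other immune cells turned to 1.33 (adjusted p = 0.12), so that 1 member, Lif, stayed lower in macrophages. The comparison of macrophages with other immune cells is limited by the macrophage markers found in the latter, given above.

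Among the immune cells, the highest ligand levels were in cells with basophil or mast cell markers. When lineages were called without requiring Ptprc, an alternative chosen after seeing the data, 1 Matrigel, 70 IgG and 54 antibody cells had at least 2 markers of that list and more than of any other lineage. In the IgG library these cells held Osm at 2489 CPM (2175 to 2835), Il6 at 2070 CPM (1785 to 2388) and Lif at 441 CPM (315 to 599.9). In the antibody library they held Osm at 1169 CPM (971 to 1396), Il6 at 2788 CPM (2477 to 3127) and Lif at 278 CPM (186 to 399). Osm UMIs were in 52 of 70 cells and 43 of 54 cells, and Il6 UMIs in 56 and 49. Both ligands were found together in 43 of the 70 and 40 of the 54 cells. Markers of the list were used to choose the cells, so their detection describes the choice: Hdc, the histidine decarboxylase that makes histamine, was in all of them and the basophil protease Mcpt8 in 84.3% and 87.0%. Gata2, Cyp11a1, Cd200r3 and Ms4a2 were in 59.3% to 98.15% of the cells. Other markers of the list were rare, with Fcer1a in 17.1% (IgG) and 24.1% (antibody) and Cpa3 in 7.14% and 1.85%. The mast cell genes Kit, Tpsb2, Cma1 and Mcpt4, looked up after the values were seen, had 0 UMIs, and Osmr had 0 UMIs as well. With the IgG library's totals, 0 UMIs allow up to 33.0 CPM, and with the antibody library's up to 28.7 CPM.

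These cells were few but weighed heavily in the library totals. In the IgG library they made up 1.23% of cells and held 23.7% of all Osm UMIs (226 of 953) and 42.5% of all Il6 UMIs (188 of 442). In the antibody library 0.950% of cells held 11.3% of Osm UMIs (122 of 1082) and 43.8% of Il6 UMIs (291 of 665). Macrophages held 90.1%, 66.2% and 78.8% of Osm UMIs in the Matrigel, IgG and antibody libraries. The Matrigel library had 1 cell with these markers, with 773 UMIs in all and 0 UMIs of Osm or Il6, so the lineage cannot be compared there.

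Other lineages added little Osm. Immune or unclassified cells without a called lineage held 7.14%, 3.46% and 2.50% of Osm UMIs in the Matrigel, IgG and antibody libraries. Their levels were 25.3, 20.9 and 23.1 CPM. Cells with neutrophil markers and a UMI of Ptprc had 14 Osm UMIs (329 CPM, 54 cells) in the IgG and 15 (259.5 CPM, 50 cells) in the antibody library, while the Matrigel library had 3 such cells. Called without Ptprc, the set held 95.7 and 126 CPM, and also Osmr at 39.4 CPM and Il6st at 163 CPM in the IgG library, which the Ptprc-positive cells did not (0 and 1 UMIs). T and NK cells held 26.2, 26.8 and 19.9 CPM, and their intervals overlapped. B cells, of which 521 were in the antibody library, held 5.44 CPM there.

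**Figure D2:**
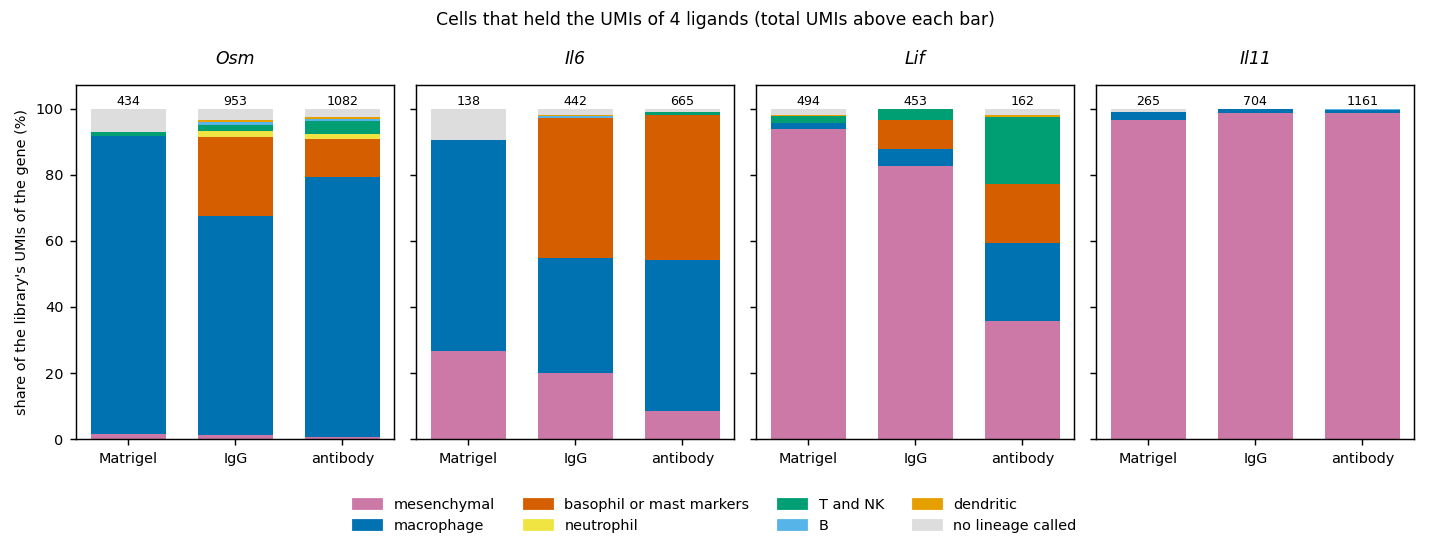
Share of each library's UMIs of Osm, Il6, Lif and Il11 (percent, bars stacked to the whole) by the cells that held them, with total UMIs above each bar. Cells with basophil or mast cell markers hold 42.5% and 43.8% of Il6 UMIs in the IgG and antibody libraries, while mesenchymal cells hold 96.6% to 98.7% of Il11 UMIs in all 3 libraries.

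Il6 was low in mesenchymal cells, at 1.96, 3.27 and 4.39 CPM in the Matrigel, IgG and antibody libraries, and higher in macrophages, at 4.56, 11.04 and 17.3 CPM. Other immune cells held 5.97, 58.6 and 49.3 CPM, and 97 of their 104 Il6 UMIs under IgG and 175 of 185 under the antibody lay in 32 and 29 cells called basophil or mast. Without cells holding at least 2 of those markers, other immune cells were at 5.97, 1.74 and 2.72 CPM. The mesenchymal level was 43.1%, 29.6% and 25.4% of the macrophage level, well above the share that macrophage markers reached there. Some of the macrophage Il6 sat in cells that also carried basophil or mast cell markers: 26 macrophages of the IgG and 22 of the antibody library had at least 2 of those markers and held 33.1% and 39.7% of macrophage Il6 UMIs. Without them macrophage Il6 was 4.56, 7.43 and 10.4 CPM. Whether they are mixed droplets was not tested.

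Most Lif UMIs of the Matrigel library were in mesenchymal cells, whose share was lower in the others. By level, other immune cells held 11.9, 23.7 and 13.3 CPM, above mesenchymal cells in the IgG and antibody libraries. Without cells holding at least 2 basophil or mast cell markers they were at 11.9, 8.71 and 8.96 CPM. T and NK cells of the Matrigel library, called without Ptprc, held 52.5 CPM (25.2 to 96.5) from 10 UMIs. Mesenchymal cells held 24.6, 13.9 and 4.55 CPM, and 93.9%, 82.6% and 35.8% of the libraries' Lif UMIs. In the antibody library, macrophages held 23.5%, T and NK cells 20.4% and cells with basophil or mast cell markers 17.9% of the 162 Lif UMIs. Macrophages had 0.466, 1.65 and 2.15 CPM, and 73.9% and 84.2% of this in the IgG and antibody libraries came from the macrophages with basophil or mast cell markers. Without those cells macrophage Lif was 0.466, 0.433 and 0.341 CPM.

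Il11 UMIs were almost all in mesenchymal cells, with 13.6, 25.8 and 89.9 CPM in the Matrigel, IgG and antibody libraries and 0.311, 0.574 and 0.509 CPM in macrophages. Its log2 fold change between these classes was 6.15 (SE 0.58, adjusted p = 7.6e-05). A small number of cells carried much of it: 125 of 1982, 123 of 1478 and 136 of 592 mesenchymal cells had a UMI, and the 10 cells with the most held 35.9%, 52.5% and 40.0% of the UMIs. Without those 10 cells the levels were 8.81, 12.4 and 55.4 CPM, and the libraries kept their order.

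The starts of Il11 and Lif, the ligands whose levels in mesenchymal cells went opposite ways between libraries, and of Socs3, the feedback gene, are shown for context. The windows are the 250 bases before a RefSeq transcript start on GRCm38.p6, 5′ to 3′ on the gene's strand, and 9 of the 10 genes matched, Osm being the one without an entry. The motifs searched on both strands were TGANTCA (the AP-1 site), TTCNNNGAA (the STAT site) and the STAT site with a spacer of 4 bases, and capitals mark a match. Il11 lies on chromosome 7, minus strand, with the window at chr7:4778142-4778391. A further Il11 window, at chr7:4782858-4783107, held no match and is not shown. Lif lies on chromosome 11, plus strand, with the window at chr11:4257318-4257567. Socs3 lies on chromosome 11, minus strand, with the window at chr11:117969367-117969616.
Il11: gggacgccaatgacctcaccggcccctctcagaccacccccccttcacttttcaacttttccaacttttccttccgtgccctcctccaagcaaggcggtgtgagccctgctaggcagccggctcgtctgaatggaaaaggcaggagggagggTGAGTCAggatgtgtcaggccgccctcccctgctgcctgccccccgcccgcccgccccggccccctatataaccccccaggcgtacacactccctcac
Lif: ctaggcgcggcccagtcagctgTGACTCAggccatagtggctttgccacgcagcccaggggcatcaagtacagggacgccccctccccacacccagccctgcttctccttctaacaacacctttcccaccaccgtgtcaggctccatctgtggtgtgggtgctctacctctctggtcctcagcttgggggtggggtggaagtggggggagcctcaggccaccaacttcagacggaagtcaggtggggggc
Socs3: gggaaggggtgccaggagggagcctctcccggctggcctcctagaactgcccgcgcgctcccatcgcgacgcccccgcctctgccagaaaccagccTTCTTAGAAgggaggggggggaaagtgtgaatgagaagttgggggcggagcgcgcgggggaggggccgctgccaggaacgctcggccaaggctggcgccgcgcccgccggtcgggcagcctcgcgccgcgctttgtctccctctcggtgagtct

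A TGANTCA match lay in the Il11 window shown and in the windows of Lif and Il6, and in 6.75% of all 32851 promoter windows of that length. A TTCNNNGAA match lay in the window of Socs3 alone among the members, and in 7.02% of all windows, and the site with the 4-base spacer lay in no member's window and in 5.85% of all. A match describes letters only. Osm and Lif are neighbours on chromosome 11 (Osm 4236420 to 4241026, Lif 4257557 to 4272514, both on the plus strand of GRCm38), with 16530 bases and 0 protein-coding genes between them. Osmr and Lifr are neighbours on chromosome 15 (Osmr 6813577 to 6874969, minus strand; Lifr 7090614 to 7197489, plus strand), with 215644 bases and 0 protein-coding genes between them. Osm was at 0.483 CPM or less in mesenchymal cells while Lif was found in mesenchymal and immune cells, and in the IgG and antibody libraries both had their highest level in the cells with basophil or mast cell markers. Osmr was mesenchymal while Lifr was in both classes.

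Receptor chains other than Osmr were less divided between the classes. Il6ra, the interleukin-6 binding chain, was higher in macrophages (165, 129 and 106 CPM in the Matrigel, IgG and antibody libraries) than in mesenchymal cells (26.8, 5.604 and 13.6 CPM), with a log2 fold change of -3.39 (SE 0.38, adjusted p = 0.00018). Il6ra overlaps an antisense gene model, Gm42809. Il11ra1, which binds interleukin-11, was higher in mesenchymal cells (206, 41.5 and 51.5 CPM) than in macrophages (10.3, 5.81 and 4.07 CPM), with a log2 fold change of 3.56 (SE 0.37, adjusted p = 0.00012). Its counts are uncertain, since the near-identical Il11ra2 copies can take or lose reads and its gene model overlaps 6 other genes. Il6st was in every class, at 268, 263 and 241 CPM in mesenchymal cells and 54.2, 125 and 82.9 CPM in macrophages, with a log2 fold change of 1.57 (SE 0.27, adjusted p = 0.0016). Lifr was at 20.4, 55.4 and 36.0 CPM in mesenchymal cells and at 131, 57.6 and 48.0 CPM in macrophages. The groups of Il6ra, Il11ra1 and Il6st values did not overlap between mesenchymal cells and macrophages, whereas those of Lifr did. The share of all genes without overlap was not counted, and 28.9% and 29% of genes were called higher and lower between these classes.

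Between libraries, calls were made from a ratio of 1.5 upwards, in either direction, for genes with 10 or more UMIs in one of the libraries. In mesenchymal cells 3 of 10 members were higher in the IgG than in the Matrigel library (background 16.6% of 14339 genes) and 3 were lower (background 21.1%). Lifr was 2.71 times higher (2.42 to 3.04), Il11 1.90 times (1.64 to 2.20) and Il6 1.66 times (1.12 to 2.51). Without the 10 cells with the most Il11 UMIs, the Il11 levels given above leave a ratio short of the call. Il11ra1 was 4.96 times lower (4.64 to 5.31), Il6ra 4.78 times (3.98 to 5.78) and Lif 1.77 times (1.55 to 2.04). Osmr had a ratio of 0.823, Il6st of 0.980 and Socs3 of 1.20, all short of the call. The dissociation list of 17 immediate early and heat shock genes had 2 genes higher and 13 lower in the same comparison (median log2 ratio -1.21), and its part in these values was not tested.

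In macrophages 4 of the 9 members with enough UMIs were higher in the IgG than in the Matrigel library (background 13.2% of 13149 genes) and 2 were lower (background 13.6%). Osm was 2.23 times higher (1.97 to 2.54), Il6st 2.31 times (2.14 to 2.50), Il6 2.42 times (1.85 to 3.19) and Lif 3.54 times (1.58 to 8.69). Lifr was 2.27 times lower (2.10 to 2.46) and Il11ra1 1.77 times (1.36 to 2.33). Without the macrophages with basophil or mast cell markers the Osm ratio was 2.02 and the Il6 ratio 1.63, and the Lif ratio turned to 0.928. Osm UMIs were in 5.86% of macrophages of the Matrigel and 13.1% of the IgG library, at medians of 3079 and 3666 UMIs per cell. With each cell thinned to 1000 UMIs the shares were 1.88% (1.53% to 2.28%) and 3.90% (3.23% to 4.65%), and 4.60% in the antibody library, while 0, 0 and 1 mesenchymal cells held an Osm UMI. In other immune cells 5 of 8 members were higher (background 23.4% of 10251 genes) and 0 lower (background 10.7%): Il6 9.82 times, Osm 6.45 times, Il6st 2.06 times, Socs3 2.04 times and Lif 1.98 times. Without cells holding at least 2 basophil or mast cell markers 3 stayed higher, Osm by 2.37 times (1.41 to 4.15), Il6st by 2.10 times and Socs3 by 1.96 times, while Il6 turned to a ratio of 0.292 (0.0499 to 1.22, 3 against 8 UMIs) and Lif to 0.730 (0.336 to 1.58). The mix of lineages differed between these libraries, with 0 and 32 cells with basophil or mast cell markers and 94 and 277 T and NK cells among the other immune cells.

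Between the antibody and the IgG library, Il11 and Lif moved apart in mesenchymal cells. Of the 10 members 2 were higher (background 9.9% of 14009 genes) and 2 lower (background 12.7%). Il11 was 3.49 times higher (3.17 to 3.84) and Il6ra 2.42 times (1.94 to 3.03). Lif was 3.05 times lower (2.31 to 4.10) and Lifr 1.54 times (1.39 to 1.71). Osmr differed little, with a ratio of 1.04 (0.965 to 1.12). The dissociation list had 11 of 17 genes higher and 0 lower in the antibody library (median log2 ratio 0.94), and its part was not tested. The antibody library had the fewest mesenchymal cells, so its ratios rest on 592 cells.

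In macrophages, 1 of 9 members was higher in the antibody than in the IgG library (background 6.96% of 12944 genes) and 1 was lower (background 12.1%). Il6 was 1.56 times higher (1.28 to 1.91) and Il6st 1.51 times lower (1.41 to 1.62), and both fell short of the call without cells holding at least 2 basophil or mast cell markers (ratios of 1.41 and 0.693). For Il6st, 84 UMIs of the IgG library left with those cells, and the macrophage with the most Il6st there held 84. Cells called basophil or mast in that library had 0 Il6st UMIs. Osm had a ratio of 1.07 (0.962 to 1.18), so the level in the antibody library stayed near that of the IgG library. Both Osm and Socs3 were below the call, Socs3 with a ratio of 1.49 (1.42 to 1.56), an interval that spans the cut. TMM scaling raised the ratios of this comparison by 0.16 (log2), which takes Socs3 past the call. The dissociation list had 10 of 17 genes higher and 0 lower (median log2 ratio 0.65), and its part in the Il6 and Socs3 ratios was not tested. In other immune cells 0 of 8 members were higher (background 13.4% of 11268 genes) and 3 lower (background 23.7%), with Lifr 2.82 times, Osm 2.32 times and Lif 1.77 times lower. Without the cells with those markers Osm was 1.55 times lower and Lif had a ratio of 1.03 (0.543 to 2.04). Lineages differed again, with 6 and 425 B cells and 277 and 834 T and NK cells in the IgG and antibody libraries. Both comparisons share the IgG library.

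**Figure D3:**
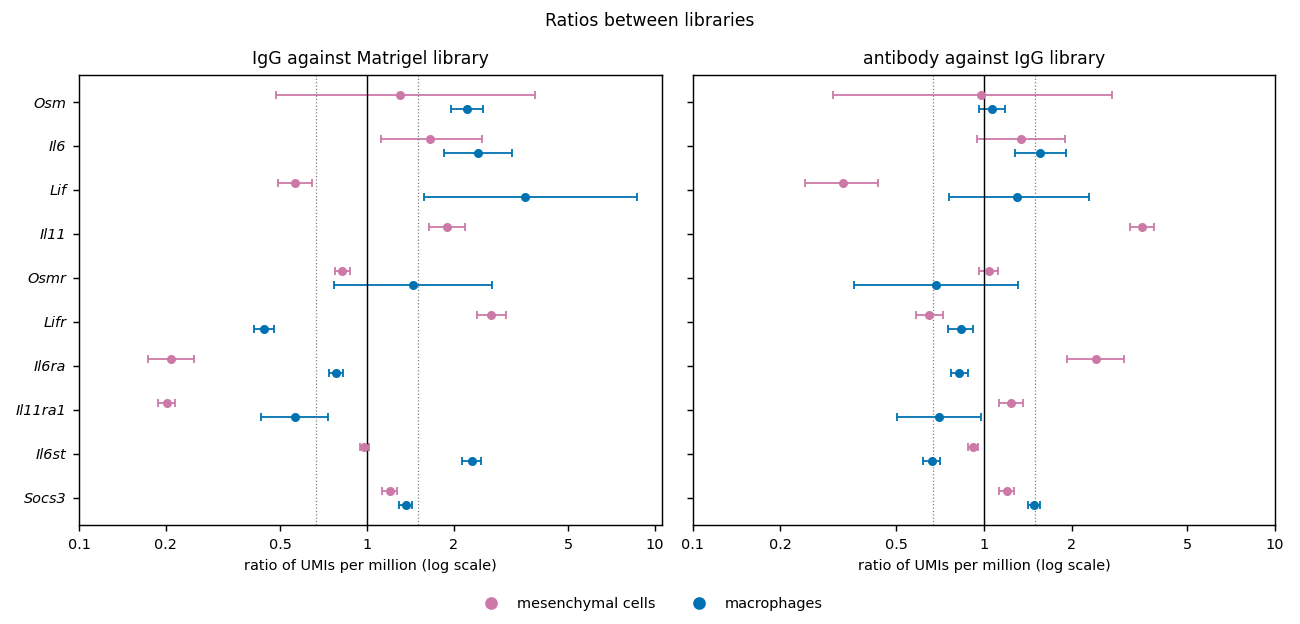
Ratios of CPM between libraries (log axis) for the members in mesenchymal cells and macrophages, with exact 95% intervals for counting error. The solid line marks a ratio of 1 and dotted lines mark 1.5 either way; members under 10 UMIs in both libraries are left out. Il11 lies at 1.90 and 3.49 in mesenchymal cells while Lif lies at 0.563 and 0.328.

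The mesenchymal values changed with the kind of mesenchymal cell. Cells were split by which markers they held most of, at least 3, into progenitor-marker cells (Pi16, Dpp4, Cd34 and others; 1488, 157 and 186 cells), activated-marker cells (Inhba, Acta2, Postn, Tnc and others; 367, 923 and 352 cells) and chondrocyte-marker cells (Col2a1, Acan, Sox9 and others; 0, 205 and 20 cells). Of the 9 members tested, 1 was higher in activated-marker than in progenitor-marker cells (background 6.77% of 12826 genes) and 1 lower (background 9.27%). Il11 was 24.8, 37.4 and 122 CPM in activated-marker and 7.56, 2.47 and 2.42 CPM in progenitor-marker cells, a log2 fold change of 3.18 (SE 0.69, adjusted p = 0.039). Il6ra was 8.98, 3.02 and 3.66 CPM in activated-marker and 34.9, 34.5 and 55.6 CPM in progenitor-marker cells, a log2 fold change of -3.15 (SE 0.41, adjusted p = 0.012). Neither gene overlapped between the subsets, but the share of all genes without overlap was not counted. Both calls were lost without the IgG library (adjusted p = 0.18 and 0.12) and without the antibody library (adjusted p = 0.088 and 0.051).

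Il11ra1 was 136, 20.8 and 13.7 CPM in activated-marker and 230, 314 and 204 CPM in progenitor-marker cells, and missed the threshold with a log2 fold change of -2.94 (SE 0.74, adjusted p = 0.055). Activated-marker cells still held 372 (IgG) and 127 (antibody) Il11ra1 UMIs, against 636 and 507 in progenitor-marker cells. Osmr did not pass between the subsets (adjusted p = 0.19), at 88.1, 76.8 and 82.8 CPM in activated-marker, 98.6, 120 and 85.9 CPM in progenitor-marker and 80.9 CPM in chondrocyte-marker cells of the IgG library. Within the IgG library progenitor-marker cells were 1.56 times above activated-marker cells (1.36 to 1.79). Lifr was at 85.1 CPM (IgG) and 91.3 CPM (antibody) in chondrocyte-marker cells, against 50.4 and 31.8 CPM in activated-marker cells. Il11 had 3 UMIs in the chondrocyte-marker cells of the IgG library and 0 in those of the antibody library.

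Within a subset the ratios between libraries were not always those of the class. The higher Il11 and lower Lif of the antibody against the IgG library held within activated-marker cells, at ratios of 3.28 (2.98 to 3.61) and 0.274 (0.194 to 0.378), and Lif also within progenitor-marker cells, at 0.323. Il6ra had a ratio of 1.22 (0.767 to 1.90) within activated-marker cells, short of the call, and 1.61 within progenitor-marker cells. Il11ra1, at 1.24 over the class, was lower within both subsets, with ratios of 0.652 and 0.659 in progenitor-marker and activated-marker cells. Within progenitor-marker cells Lifr had a ratio of 1.03, Il6 of 0.594 (8 against 11 UMIs), Il6st of 0.558 and Socs3 of 0.787. For the IgG against the Matrigel library, Il11ra1 was 6.56 times lower in activated-marker cells but had a ratio of 1.36 in progenitor-marker cells, and Il6ra had ratios of 0.336 and 0.991. Il11 had ratios of 1.51 and 0.326 (5 against 98 UMIs) and Lifr of 1.86 and 1.39 in activated-marker and progenitor-marker cells. Il6st and Socs3, short of the call over the class, were 2.09 times (1.96 to 2.24) and 1.95 times (1.73 to 2.19) higher within progenitor-marker cells. Lif was 3.12 times lower in activated-marker cells (52.8 to 16.9 CPM) with a ratio of 1.29 in progenitor-marker cells (14.5 to 18.7 CPM). The share of progenitor-marker cells among mesenchymal cells also differed between libraries, at 1488 of 1982, 157 of 1478 and 186 of 592 cells. Its part in the class values was not tested.

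**Figure D4:**
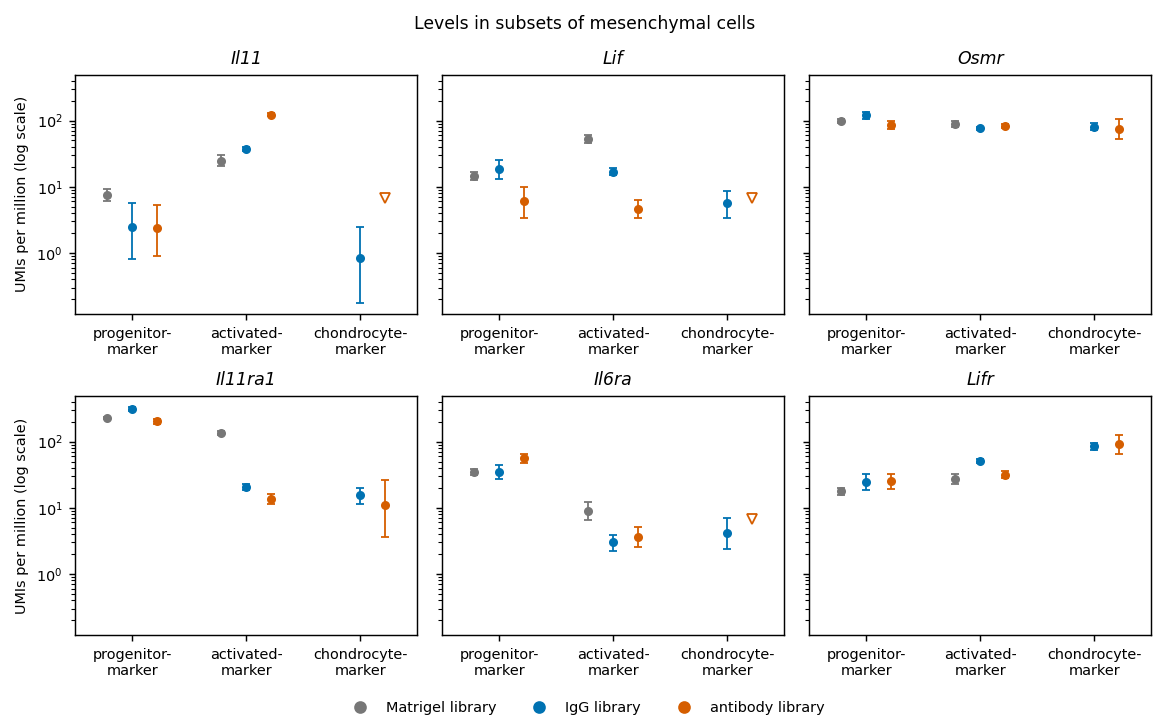
Levels of 6 members in CPM (log axis) in 3 marker-defined subsets of mesenchymal cells, with 1 point per library and exact 95% Poisson intervals for counting error; open triangles mark 0 UMIs at the level that 3 UMIs would give, and subsets under 20 cells are left out. Il11 is above 24 in activated-marker and below 8 in progenitor-marker cells in all 3 libraries, while Osmr lies between 75 and 120 throughout.

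Macrophages were split likewise, by at least 2 markers, into monocyte-marker cells (Ly6c2, Ccr2, Plac8 and others; 794, 855 and 958 cells) and resident-marker cells (Lyve1, Folr2, Timd4 and others; 3602, 1172 and 1333 cells). Of 9 members tested, 4 were higher in monocyte-marker cells (background 14.7% of 11727 genes) and 1 lower (background 13.8%). Socs3 was 214, 293 and 432 CPM in monocyte-marker and 122, 139 and 223 CPM in resident-marker cells, in the library order used throughout, a log2 fold change of 1.03 (SE 0.10, adjusted p = 0.00082). Lifr was 80.2, 41.9 and 36.9 CPM against 150, 85.7 and 60.0 CPM, a log2 fold change of -0.80 (SE 0.10, adjusted p = 0.0024). Socs3 values of the subsets overlapped across libraries, as did those of Lifr, but within each library the order was the same. Lif, Il6ra and Il6st were the other higher members, at log2 fold changes of 3.51, 0.39 and 0.39, and the calls of Il6ra and Il6st were lost without the IgG and without the antibody library. For Lif, 11 of 14 UMIs (IgG) and 28 of 30 UMIs (antibody) of monocyte-marker cells lay in macrophages with at least 2 basophil or mast cell markers; without those cells the levels were 0.592, 0.679 and 0.347 CPM, from 2 to 3 UMIs, too few to test. The dissociation list had 11 of 17 genes higher in monocyte-marker cells, and its part in the Socs3 difference was not tested.

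Osm did not pass between the macrophage subsets (log2 fold change 0.11, SE 0.15, adjusted p = 0.62). It was 22.8, 52.3 and 45.2 CPM in monocyte-marker and 19.4, 45.2 and 53.8 CPM in resident-marker cells. The IgG library was above the Matrigel library by 2.30 times (1.77 to 3.01) in monocyte-marker and 2.32 times (1.94 to 2.79) in resident-marker cells. Il6 behaved otherwise: in resident-marker cells it was 1.53, 15.6 and 14.2 CPM, and in monocyte-marker cells 11.5, 7.21 and 18.3 CPM. The IgG library was thus 10.2 times above the Matrigel library (6.14 to 17.8) in resident-marker cells, with a ratio of 0.625 (0.379 to 1.02) in monocyte-marker cells. Without the cells with basophil or mast cell markers these ratios were 9.04 (5.41 to 15.8) and 0.314 (0.164 to 0.575). That difference between the subsets was not tested.

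Single cells were asked whether they held a receptor chain together with Il6st, after thinning each to 5000 UMIs. Among mesenchymal cells, 26.1% (23.96% to 28.3%), 22.01% (19.8% to 24.3%) and 23.5% (19.9% to 27.4%) of the Matrigel, IgG and antibody libraries held Osmr with Il6st. The intervals overlapped at this depth. At 2500 UMIs the shares were 11.8% (10.3% to 13.4%), 8.19% (6.80% to 9.74%) and 6.20% (4.33% to 8.56%), the Matrigel library being above the others. The Matrigel share was the highest at both depths, with overlapping intervals at 5000 UMIs. Without thinning the shares were 41.9%, 61.2% and 64.0%. These cannot order the libraries, since mesenchymal cells had medians of 8752, 17190 and 19190 UMIs. Among macrophages the same pair was in 0.107%, 0.313% and 0.138% of cells, from 1, 3 and 2 cells. Il11ra1 with Il6st was in 43.3%, 11.2% and 13.1% of mesenchymal cells, and Il6ra with Il6st in 9.71%, 2.22% and 5.78%. Lifr with Il6st was in 7.13%, 14.3% and 8.09%, the IgG library being above both others with no overlap of intervals. At 2500 UMIs it was in 2.78%, 6.05% and 3.65%, and the intervals of the IgG and antibody libraries overlapped. Shallower cells were left out, which kept 1586, 1354 and 519 mesenchymal cells but only 934, 959 and 1450 macrophages.

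**Figure D5:**
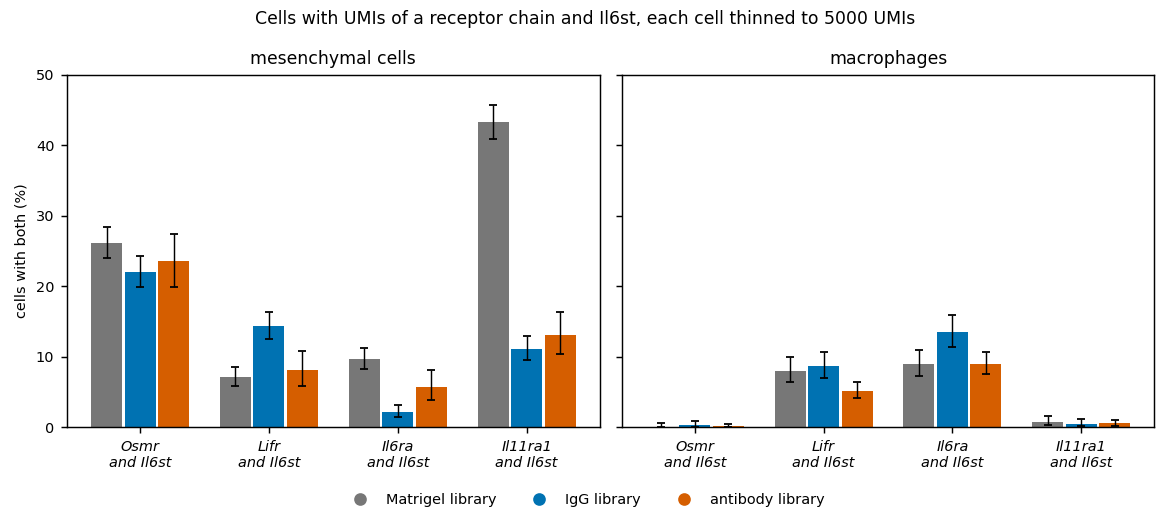
Percent of cells with UMIs of both a receptor chain and Il6st, each cell thinned to 5000 UMIs, in mesenchymal cells and macrophages by library; whiskers are exact 95% binomial intervals for counting error. Osmr with Il6st is in 22.01% to 26.1% of mesenchymal cells and in at most 0.313% of macrophages.

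Socs3, which STAT3 induces and which then restrains Il6st, was in all classes, at 92.8, 111 and 133 CPM in mesenchymal cells and at 156, 213 and 317 CPM in macrophages of the Matrigel, IgG and antibody libraries. It was lower in mesenchymal cells by a log2 fold change of -1.07 (SE 0.18, adjusted p = 0.0017). The antibody library was highest and the Matrigel library lowest in both classes. With totals as the scaling, the ratios fell short of 1.5 at each step. TMM scaling took the macrophage step from the IgG to the antibody library past 1.5. The subsets differed from the classes: in progenitor-marker cells the IgG library was highest (96.1, 187 and 147 CPM). In resident-marker macrophages the antibody library was 1.60 times above the IgG library (1.47 to 1.75). Neutrophil-marker cells with a UMI of Ptprc held Socs3 at 1761 CPM (75 UMIs) in the IgG and at 1972 CPM (114 UMIs) in the antibody library, and the 3 of the Matrigel library had 2 UMIs.

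Other genes of the pathway were taken from 4 lists. Clcf1, a ligand of the family, was at 4.51, 4.79 and 6.90 CPM in mesenchymal cells and was higher in other immune cells, at 17.2, 28.2 and 46.7 CPM (mesenchymal against other immune log2 fold change -2.40, adjusted p = 8.6e-05). Of 11 further ligands and receptors of the family, 6 had enough UMIs in macrophages, where Il27ra was 2.90 times lower in the IgG than in the Matrigel library and Ebi3 had a ratio of 1.04.

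Of 10 kinases, STATs and sheddases, 0 were higher (background 16.6%) and 4 lower (background 21.1%) in mesenchymal cells of the IgG against the Matrigel library (median log2 ratio -0.38). Jak1 was 368, 135 and 192 CPM across the 3 libraries, 2.73 times lower in the IgG library, Stat5b was 2.05 times lower and Adam17, which sheds Il6ra, 1.93 times. Stat3 was 186, 163 and 149 CPM, short of the call in both comparisons. In macrophages Jak2 was 4.96 times higher, with Stat5b at a ratio of 0.726, Jak1 at 0.752 and Stat3 at 0.910. Between the antibody and IgG libraries, Stat5a and Jak1 had ratios of 1.43 and 1.42 in mesenchymal cells, while in macrophages Jak2 was 1.65 times lower and Stat5a had a ratio of 0.789.

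Of 7 further inhibitors, 2 were higher (background 16.6%) and 0 lower (background 21.1%) in mesenchymal cells of the IgG against the Matrigel library: the phosphatases Ptpn1, 1.91 times, and Ptpn2, 1.51 times. Socs1 had a ratio of 1.40 there. In macrophages 3 were higher (background 13.2%) and 0 lower (background 13.6%), Cish by 6.83 times, Socs1 by 4.90 times and Socs2 by 3.60 times, whereas Socs3 had its ratio of 1.36. Against the IgG library these 3 were lower in macrophages of the antibody library (background 12.1%), Cish by 1.63, Socs1 by 1.60 and Socs2 by 1.57 times, while Socs3 had a ratio above 1. In mesenchymal cells of that comparison 0 were higher (background 9.9%) and 1, Ptpn1, was 1.62 times lower (background 12.7%), with ratios of 0.803 for Ptpn2 and 0.830 for Socs1.

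Of 22 genes known as STAT3 targets, 5 were higher and 6 lower in mesenchymal cells of the IgG against the Matrigel library, near the background of 16.6% and 21.1% (median log2 ratio -0.17, all genes -0.03). Serpina3g, a protease inhibitor, was 11.6 times higher, the metallothionein Mt1 2.90 times higher and the kinase Pim1 2.75 times lower. In macrophages 6 were higher and 3 lower (background 13.2% and 13.6%; median 0.05), with Serpina3g 31.4 times and Timp1 10.8 times higher and Hp 3.42 times lower. Between the antibody and IgG libraries 5 were higher and 2 lower in mesenchymal cells, over a background of 9.9% and 12.7% (Cebpb 2.38 times, Timp1 1.74 times and Saa3 1.59 times higher), and 3 higher and 3 lower in macrophages, over 6.96% and 12.1% (Saa3 3.14 times, Ifitm3 1.67 times and Cebpb 1.66 times higher). The targets thus went both ways in each comparison.

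Over the 14 sums of at least 50 cells (mesenchymal cells, macrophages and the immune lineages of each library), the genes most like Osm by Pearson's r of log2(CPM + 1) were Oas3, Slfn1, Ifi47, B430306N03Rik and Gbp3, with r from 0.967 down to 0.953. Those most like Osmr were Tead1, Nfatc4, Arhgef25, Tnfrsf11b and Srpx2, with r from 0.996 down to 0.985. The sums share libraries and depth, so these are descriptions. With sums of at least 20 cells, which brought in the cells with basophil or mast cell markers (17 sums), the first 5 for Osm were Ccl3, Tln1, Ccl4, Cdkn1a and Anxa11, none of them in the former list, and Nfatc4 and Srpx2 stayed among those for Osmr.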

How the data were processed

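Ectopic masses of CD1 mice were profiled by 10x Genomics 3' v3 single-cell RNA sequencing, 1 library per group, per the labels' protocols. Cell Ranger 3.0.2 and the mm10 build are named in the submitters' processing notes, and no annotation release. The authors deposited raw UMI counts for every gene and barcode, as the whole-number values show. The libraries held 9249, 6065 and 6113 barcodes with 44252421, 46317250 and 38163880 UMIs (Matrigel, IgG, antibody).

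Cells needed at least 300 genes, 500 UMIs and at most 15% mitochondrial UMIs, which removed 26, 107 and 146 barcodes. Scrublet in scanpy 1.11.5 marked only 2, 3 and 4 doublets, so top-scoring cells were dropped at an assumed rate of 0.8% per 1000 cells (681, 284 and 285 cells). Raw counts were summed per class and library and tested with edgeR 4.0.16 (quasi-likelihood, TMM, library as a term, genes with at least 10 UMIs in 3 of 9 or 2 of 6 sums), with Benjamini-Hochberg adjustment over all genes. The libraries stand in for replicates of a class, and cells of a library share its animals. Library ratios carry exact conditional binomial intervals and no test. The edgeR fit of the 9 class sums was tested on simulated data for mesenchymal cells against macrophages. The other contrasts, the subset fits and DESeq2 were not tested in this way.

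Named list genes were the 3 with the largest ratio among those at 10 CPM or more, plus Stat3, Jak1, Clcf1, Socs1 and 1 other, given for mesenchymal cells and macrophages; genes of similar pattern were the 5 with the highest correlation to Osm or Osmr. The Il11ra2 copies, listed under 3 identifiers, were left out of the ratios. The members and gene lists were chosen with earlier results of these data known. Gene positions come from GENCODE on GRCm38 and promoters from RefSeq on GRCm38.p6. DESeq2 1.42.0 and other classes, filters, scalings and thresholds were tried as alternatives. Some genes of these lists are not reported here.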

Additional observations from a re-analysis of the deposited data

Results flagged for a closer look

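Lif and Lifr went opposite ways in mesenchymal cells and macrophages between the IgG and Matrigel libraries. Lif had a ratio of 0.563 in mesenchymal cells and 3.54 in macrophages, and Lifr 2.71 in mesenchymal cells and 0.441 in macrophages. With 1 library per group these differences were not tested. The macrophage ratio of Lif was 0.928 without the 26 IgG macrophages that carried at least 2 basophil or mast cell markers.

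Cells left unclassified, which lacked enough collagen UMIs and had 0 UMIs of Csf1r, Adgre1 and Ptprc, held members above the level of the Matrigel library. Osm was at 114 CPM (IgG) and 61.1 CPM (antibody), against 21.8 CPM in the Matrigel library, and Il6 at 79.0 and 109 CPM, against 6.83 CPM. Il6st was at 204 and 264 CPM (Matrigel 119), and Socs3 at 249.2 CPM in the antibody library (Matrigel 118). Of these cells 38 (IgG) and 25 (antibody) carried at least 2 basophil or mast cell markers. The 8 endothelial markers summed to 782 and 320 CPM in the unclassified cells of the IgG and antibody libraries, and to 6.83 CPM in those of the Matrigel library. A list of 8 muscle markers summed to 235 and 1104 CPM in the IgG and antibody libraries, and to 157 CPM in the Matrigel library. The part of either list in the Il6st values was not tested.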

How the results depend on the processing

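Most fold changes and ratios held, while most shares of cells did not. Over all settings, 639 of the members' log2 fold changes kept their side of the threshold, 30 lost the call, 13 gained it and 2 reversed. A sign change was counted as reversed only where the value passed the threshold before or after. The 639 thus include sign changes of values that passed in neither setting. An example is Il6 between the macrophage subsets, from 0.52 to -0.21 without cells with at least 2 basophil or mast cell markers. Of library ratios 477 stayed within their interval, 47 moved beyond it and 8 reversed. For the counts of members that follow, the share of all genes under the same setting was not counted. A changed count thus cannot be told from a change over all genes. Leaving out 1 library at a time gave 3 to 4 members higher in mesenchymal cells than in macrophages, 0 to 2 lower in macrophages than in other immune cells, 1 to 4 higher and 1 to 2 lower in monocyte-marker against resident-marker cells, and 0 to 1 higher and 0 to 3 lower in activated-marker against progenitor-marker cells. Without a library term, 1 member was lower in macrophages than in other immune cells, and 1 was higher and 0 lower in monocyte-marker cells. There, 2 were higher with totals as the only scaling and 2 by DESeq2, and 2 were lower with collagen at 0.5%, with 2 UMIs needed for macrophages and with no filter on low counts. Osmr reversed there from -0.43 to 1.67 with collagen at 2%. In activated-marker cells 2 were higher with collagen at 2% and with no filter, and 2 were lower without mesenchymal cells holding Csf1r or Adgre1, 3 with no filter and 3 by DESeq2.

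At a fold of 2, IgG against Matrigel gave 1 higher in mesenchymal cells and 1 lower in macrophages, and antibody against IgG gave 1 lower in mesenchymal cells and 0 higher and 0 lower in macrophages. Collagen at 2% gave 1 lower among other immune cells (IgG against Matrigel), 1 higher there (antibody against IgG) and 1 lower in mesenchymal cells (antibody against IgG), as did leaving out mesenchymal cells with Csf1r or Adgre1, also 1. In antibody against IgG macrophages, needing 2 UMIs gave 0 higher, TMM scaling 2 higher and 0 lower, and keeping doublets 2 lower; TMM moved the median of all genes there by 0.16 (log2) and in other immune cells by 0.22, and for IgG against Matrigel in other immune cells by -0.17. Chosen after seeing the data, ratios within progenitor-marker cells reversed for IgG against Matrigel in Lif (1.293), Il11 (0.3263, from 5 against 98 UMIs) and Il11ra1 (1.361), and for antibody against IgG in Lifr (1.03). Also chosen after seeing the data, leaving out cells with at least 2 basophil or mast cell markers gave 1 member lower in macrophages than in other immune cells, where Il6 reversed to 1.33. IgG against Matrigel then gave 3 higher among other immune cells, where Il6 (0.2919) and Lif (0.7296) reversed, as did Lif in macrophages (0.9281). Antibody against IgG gave 0 higher and 0 lower in macrophages and 1 higher among other immune cells (Il6, 10 against 3 UMIs), where Lif reversed to 1.029. Other causes were not tested. No paired analysis was possible because each group has 1 library.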

Other observations

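Oncostatin M and interleukin-6 receptor chains also varied among lymphoid cells. T and NK cells held Il6ra at 26.2, 57.6 and 170 CPM and Il6st at 15.7, 93.8 and 156 CPM in the Matrigel, IgG and antibody libraries, from 115, 296 and 923 cells. The Matrigel values rest on 5 Il6ra and 3 Il6st UMIs. B cells of the antibody library held Il6ra at 9.79 CPM and Il6st at 29.4 CPM. Il27ra, a receptor chain that also pairs with Il6st, was at 21.6, 42.2 and 62.9 CPM in other immune cells and at 12.1, 4.16 and 5.49 CPM in macrophages.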
